A study of Mus musculus with 15 samples.

Results

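The genes described here are 49 genes of the multiciliated cell, the airway cell that carries beating cilia. They encode the parts of the ciliary axoneme, the microtubule shaft of the cilium, together with regulators that switch the ciliary genes on. The 49 symbols were listed by their function, with earlier results of these data known, and were looked up in a table of read counts for 33340 genes. The GENCODE M21 annotation held 47 of them under the listed symbol, and Dnai1 and Dnai2 were found under the RefSeq synonyms Dnaic1 and Dnaic2. All 49 were abundant enough to be tested, among 17457 genes tested in all.

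The data are bulk RNA-seq of whole lung from C57BL/6 mice that received bleomycin (BLM), a DNA-damaging drug that injures and then scars the lung, at 5 U/kg into the trachea. By the study's methods the mice were male and 10 to 12 weeks old at treatment. Poly(A) RNA was sequenced from 4 untreated lungs (day 0), and from 4, 4 and 3 lungs taken 7, 14 and 21 days after BLM. Day 0 is the only control, since no lung given vehicle was measured, and day 0 replicate 4 carries a control title although its treatment label names bleomycin.

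Multiciliated cells line the trachea, bronchi and bronchioles, where their cilia move mucus towards the throat. In each cilium, outer and inner dynein arms slide microtubule doublets past each other, and radial spokes, the central pair and the nexin-dynein regulatory complex turn that sliding into a regular beat. Mcidas acts early and Foxj1 later in the program that makes such a cell, RFX factors act beside Foxj1, and inherited loss of many of these proteins causes primary ciliary dyskinesia. In bulk lung RNA, fewer multiciliated cells and less RNA per cell cannot be told apart.

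RFX factors are known to bind sites close to the start of ciliary genes, so the RefSeq promoter windows (GRCm38.p6, 250 bases before to 50 bases after the annotated start) were searched for their motif. The windows of 41 members were in the table, out of 27025 genes with a window. Those of Foxj1, Dnah3, Rsph1, Rsph4a, Cfap54, Cfap53, Cfap65 and Tppp3 were not searched here. The RFX half-site, GTTGCCA on either strand, was found in 10 of the 41 members (24.4%) and in 5.02% of all genes with a window. The paired form, GTTNCC followed within 3 bases by GGNAAC, was found in 1 member (Ak9, 2.44%) and in 0.936% of all genes. The forkhead core, TGTTTAC on either strand, was found in 3 members (Ak7, Cfap43 and Sntn, 7.32%) and in 4.05% of all genes. The stretches below lie wholly before the annotated start and are shown because each carries a single match, in capitals, with the RFX half-site in the first 6 and the forkhead core in the last 2.
Mcidas (chr13:112993662-112993690, plus strand): ggggaagccagGTTGCCAggttggttaac
Dnah7b (chr1:46066679-46066707, plus strand): acaggagcacaGTTGCCAcccacccttaa
Drc1 (chr5:30281370-30281392, plus strand): ctgctttccctTGGCAACggctt
Hydin (chr8:110266952-110266976, plus strand): tgcggttgctgTGGCAACagatggt
Lrriq1 (chr10:103236324-103236352, minus strand): gcagattggctGTTGCCAtggctacggtt
Tekt1 (chr11:72361883-72361908, minus strand): gcgtccgtccgGTTGCCAtagagacc
Ak7 (chr12:105705840-105705868, plus strand): agtagagaaatTGTTTACccaagcagagc
Cfap43 (chr19:47837399-47837427, minus strand): aggatacaggtGTAAACAgtggcatcttc
In Drc1, Hydin, Lrriq1 and Tekt1 the half-site began 12 to 19 bases before the start, whereas in Mcidas it began 195 bases before it and in Dnah7b 163 bases before it. A match is a stretch of letters and was not tested for binding.

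Total counts ran from 15652008 to 18020661 per library, so depth differed little. Some libraries stood apart in ways that the day labels do not give. Day 7 replicate 4 and day 21 replicate 1 had far more heart RNA than the other libraries of their day, with Myh6, the heart's alpha myosin, at 296 and 321 CPM (counts scaled to a common library size), against at most 4.12 CPM in the others of days 7, 14 and 21 and 0.130 to 82.3 CPM at day 0. The same libraries were also highest in Bpifa1, a secreted protein of the large airways and their glands, at 330 and 1045 CPM. Krt5, a keratin of airway basal cells, was at 8.78 CPM in day 21 replicate 1 and at most 0.416 CPM in every other library. The share of counts from mitochondrial genes also varied, from 2.28 to 4.22% at day 0, 2.03 to 2.15% at day 7, 2.102 to 4.14% at day 14 and 2.66 to 4.01% at day 21.

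The axoneme genes were lower at day 14 and at day 21 than at day 0, and as a group they were close to the day 0 level at day 7. At day 14 all 49 had a negative log2 fold change, with a median of -1.28, beside a median of 0.02 over all genes tested. A gene was called when its adjusted p was under 0.05 and its fold change over 1.5. By that rule 39 of 49 members were lower at day 14 and none was higher, where 11.2% of all genes tested were called lower. These comparisons with day 0 share their control libraries. At day 21, 19 of 49 were called lower (10.1% of all genes tested), the median was -0.88 and 48 of 49 were negative. At day 7, 1 of 49 was called lower, Tppp3 (7.36% of all genes tested), with a median of -0.08, and 27 were negative.

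The members made up 0.126 to 0.187% of all counts in the day 0 libraries and 0.108 to 0.170% at day 7. At day 14 they made up 0.0432 to 0.0831%, below every day 0 library. At day 21 the shares were 0.120% in replicate 1, 0.0588% in replicate 2 and 0.0562% in replicate 3, so all 3 lay below day 0 but replicate 1 was close to it.

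A score for each library was formed as the mean over the 49 genes of log2 CPM minus the day 0 mean of that gene. It was -0.14, 0.37, -0.33 and 0.09 in the day 0 libraries, and -0.15, -0.32, -0.18 and 0.34 in the day 7 libraries. It was -0.66, -1.74, -1.75 and -0.95 at day 14, where no library reached the day 0 range. It was -0.26, -1.24 and -1.34 at day 21, and there replicate 1 lay within the day 0 range. Day 7 replicate 4 and day 21 replicate 1, the highest of their day, are the libraries with the most heart and large airway RNA, and their part in the result was not tested. Without these 2 libraries, an alternative chosen after their marker levels were seen, 36 members rather than 19 were lower at day 21, with a median of -1.33. Leaving out day 21 replicate 1 alone gave 37, which included the 19, and leaving out day 21 replicate 3 gave 12.

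**Figure D1:**
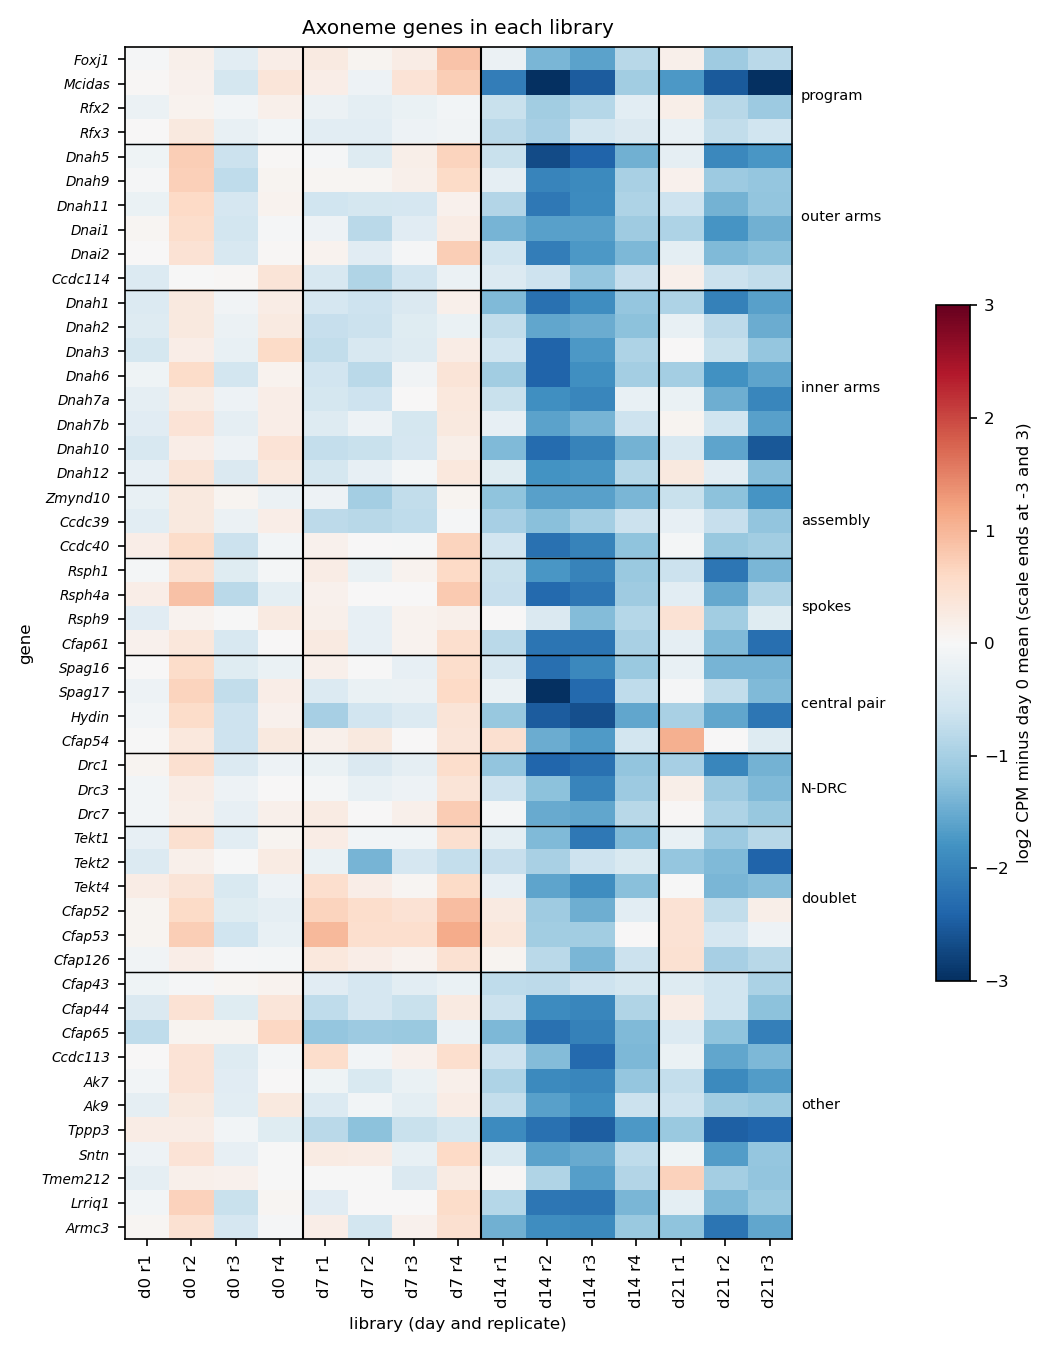
Log2 CPM of each of the 49 genes (rows, by role) in each of the 15 libraries (columns, by day and replicate), minus the day 0 mean of the gene; blue is lower and red higher, and the colour scale ends at -3 and 3. Day 14 replicates 2 and 3 are the darkest blue columns, and day 21 replicate 1 is paler than the other 2 libraries of its day.

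**Figure D2:**
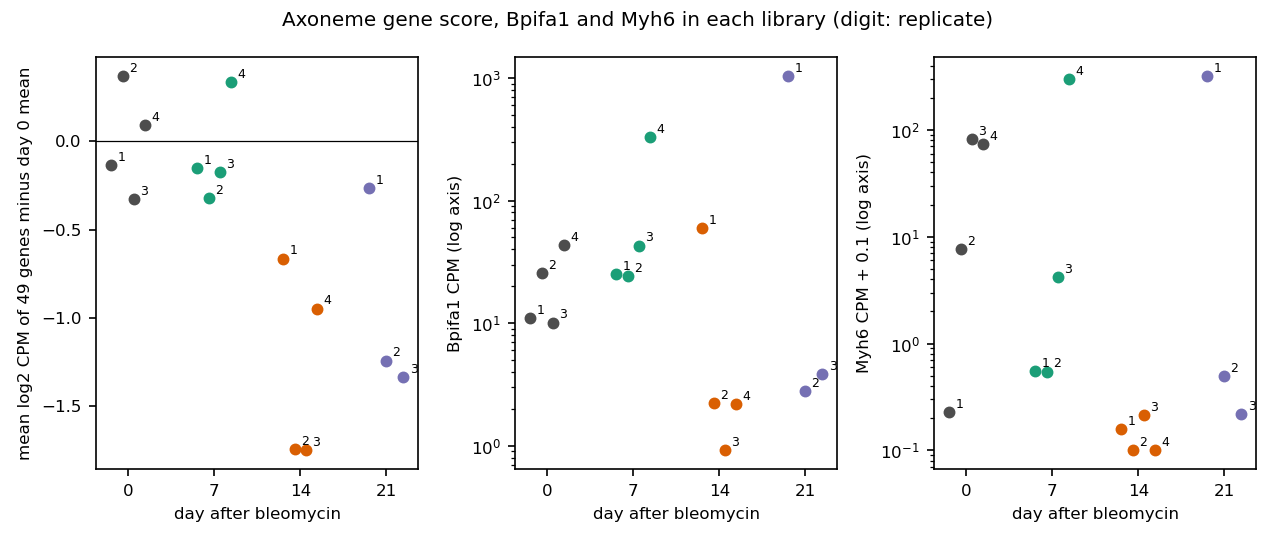
Each point is a library, with its replicate number, placed by day. The left panel gives the mean over 49 genes of log2 CPM minus the day 0 mean, the middle panel Bpifa1 in CPM and the right panel Myh6 in CPM with 0.1 added, both on log axes; day 7 replicate 4 and day 21 replicate 1 are the highest of their day in all 3 panels.

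Among the regulators, Foxj1, Mcidas, Rfx2 and Rfx3 were all called lower at day 14, and of these only Mcidas was also called lower at day 21. Without day 21 replicate 1 the other 3 were called lower at day 21 too, Foxj1 at -0.99 (adjusted p = 0.0455), Rfx2 at -1.01 (adjusted p = 0.00191) and Rfx3 at -0.71 (adjusted p = 0.0121). Day 21 replicate 1 had the highest member score of its day, and without it only day 21 replicates 2 and 3 remain. None of these 3 genes was called at day 21 when day 21 replicate 2 or 3 was left out instead. Foxj1 (chr11:116330704-116335399 in GRCm38) is the forkhead factor that marks multiciliated cells. It was at 90.03, 104, 74.5 and 106 CPM in the day 0 libraries, 112, 97.5, 108 and 168 CPM at day 7, 82.1, 35.97, 30.4 and 52.3 CPM at day 14 and 103, 43.9 and 52.8 CPM at day 21. Day 14 replicate 1 and day 21 replicate 1 thus lay within the day 0 range, and the other libraries of those days lay below it. The log2 fold change of Foxj1 was 0.37 ± 0.30 (SE, adjusted p = 0.385) at day 7, -0.90 ± 0.30 (SE, adjusted p = 0.0322) at day 14 and -0.49 ± 0.33 (SE, adjusted p = 0.28) at day 21. The day 14 call was lost when any of 5 single libraries was left out (day 0 replicate 2 or 4, or day 14 replicate 2, 3 or 4).

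Mcidas (chr13:112993845-113000394), the coactivator that starts multiciliation, was the scarcest member and changed most. It had 14, 16, 9 and 21 counts in the day 0 libraries and 18, 14, 22 and 26 at day 7. At day 14 it had 2, 0, 1 and 6 counts, and at day 21 it had 3, 1 and 0, so every library of both days lay below every day 0 library. The log2 fold change was -2.68 ± 0.65 (SE, adjusted p = 0.00534) at day 14. At day 21 no library had more than 3 counts, so the ratio of summed counts, scaled to library size, is given in place of the fitted fold. It was 8.63% of day 0 (4 counts against 60, 95% exact interval for counting error only from 2.28 to 23.3%, adjusted p = 0.00442). Rfx2 and Rfx3, RFX factors of the ciliary program, fell less at day 14, by 0.71 and 0.70 on the log2 scale (SE 0.22 and 0.16, adjusted p = 0.0238 and 0.0031), with all 4 day 14 libraries below day 0 for both. Both calls were lost within 1 range of mitochondrial share, and that of Rfx2 also without day 0 replicate 4, day 14 replicate 2 or day 14 replicate 3.

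**Figure D3:**
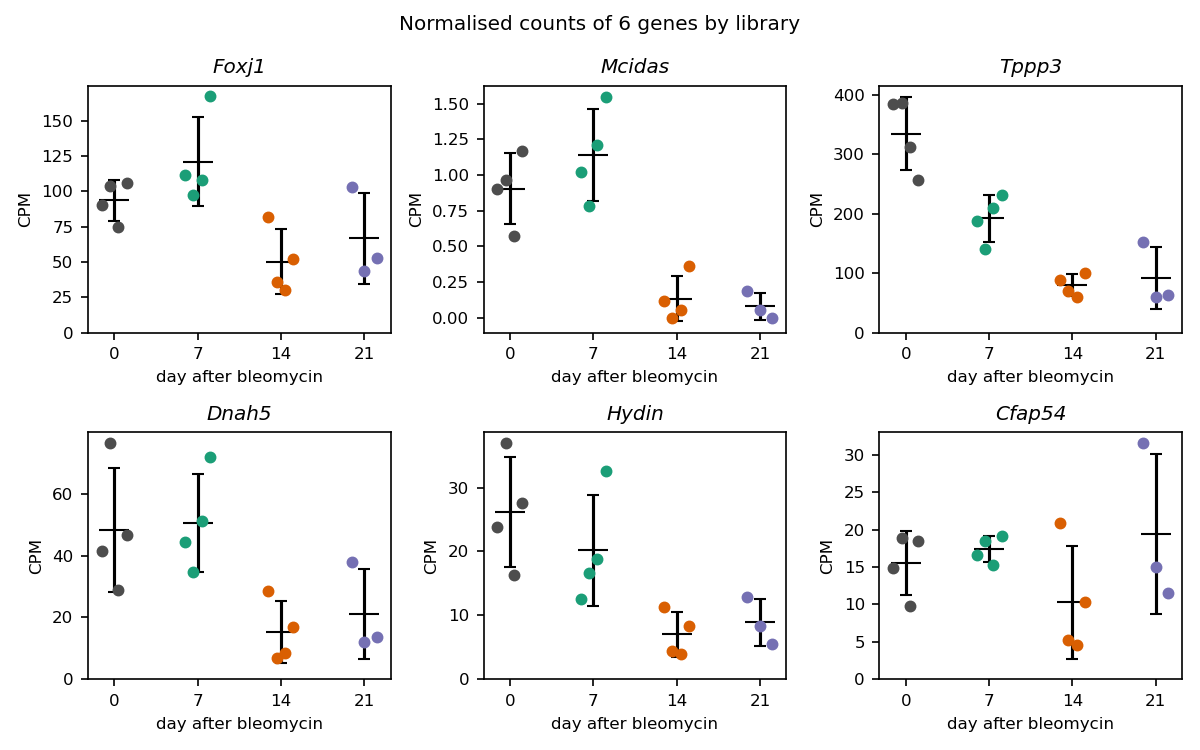
CPM of 6 members in each library (points) with the mean and SD of each day (bar and whiskers), by day after BLM on linear axes. Tppp3 is lower in every day 7 library than in any day 0 library, Mcidas is near 0 at days 14 and 21, and Cfap54 in day 21 replicate 1 is higher than in any day 0 library.

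All 6 outer arm genes were called lower at day 14 and 2 of 6 at day 21. Dnah5, a heavy chain of the outer arm motor, was at 41.5, 76.4, 28.8 and 46.7 CPM at day 0, 44.3, 34.7, 51.2 and 72.1 CPM at day 7, 28.7, 6.95, 8.47 and 16.8 CPM at day 14 and 37.9, 11.9 and 13.5 CPM at day 21. Every day 14 library was below day 0, but by little in replicate 1, and day 21 replicate 1 lay inside the day 0 range. Its log2 fold change was -1.67 ± 0.45 (SE, adjusted p = 0.0109) at day 14 and -1.20 ± 0.49 (SE, adjusted p = 0.0779) at day 21. Dnai2, an intermediate chain of the same arm, was at 21.2, 28.5, 15.1 and 21.5 CPM at day 0, 22.5, 16.7, 20.7 and 35.3 CPM at day 7, 13.8, 4.91, 6.35 and 8.21 CPM at day 14 and 17.3, 8.32 and 8.88 CPM at day 21. It gave -1.37 ± 0.33 (SE, adjusted p = 0.005) at day 14, with no overlap with day 0. The 2 called at day 21 were Dnah11 and the intermediate chain Dnai1, at -1.10 ± 0.34 (SE, adjusted p = 0.0215) and -1.41 ± 0.30 (SE, adjusted p = 0.00225), and for both every day 21 library lay below day 0. The Dnah11 call was lost without day 0 replicate 2, day 21 replicate 2 or day 21 replicate 3. Ccdc114, of the docking complex that anchors the arm, had the smallest fall of the group at day 14, -0.73 ± 0.23 (SE, adjusted p = 0.0242), and its call was lost without day 0 replicate 4 or day 14 replicate 3. That of Dnah9 was lost without day 0 replicate 2 or day 14 replicate 2 or 3.

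Of the 8 inner arm heavy chain genes, 6 were called lower at day 14 and 4 at day 21 (Dnah1, Dnah2, Dnah6 and Dnah10). Dnah6 was at 58.9, 94.3, 43.8 and 68.7 CPM at day 0, 42.8, 36.3, 59.3 and 84.3 CPM at day 7, 31.1, 11.99, 17.9 and 31.7 CPM at day 14 and 31.4, 18.1 and 21.2 CPM at day 21. All libraries of days 14 and 21 lay below day 0, at -1.52 ± 0.33 (SE, adjusted p = 0.0026) and -1.50 ± 0.36 (SE, adjusted p = 0.00612). Dnah10 was at 24.8, 39.4, 31.2 and 46.1 CPM at day 0, 21.01, 21.7, 24.2 and 38.9 CPM at day 7, 13.8, 6.89, 8.53 and 12.9 CPM at day 14 and 24.6, 11.3 and 5.82 CPM at day 21. It had the largest fitted fall of the group, -1.75 ± 0.36 (SE, adjusted p = 0.00188) at day 14, and at day 21 its replicate 1 came just under the lowest day 0 library. The day 21 call of Dnah10 was lost without day 21 replicate 2 or 3, and that of Dnah2 without any of 4 libraries (day 0 replicates 2 and 4, day 21 replicates 2 and 3), with the mitochondrial covariate and with days 0 and 21 fitted alone. At day 14 the call of Dnah12 was lost without day 0 replicate 2 or 4 or day 14 replicate 2 or 3.

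Dnah7a and Dnah7b were the 2 inner arm genes not called at day 14 by edgeR, at -1.03 ± 0.42 (SE, adjusted p = 0.0712) and -0.91 ± 0.36 (SE, adjusted p = 0.0616), and both were called lower by DESeq2, by limma voom and with no filter on low counts. They are near copies of each other and of Dnah7c, and of the 150-base stretches of their transcripts 10.4% (Dnah7a) and 11% (Dnah7b) occur unchanged in another copy. Reads that map to several places were left out by the authors, so the levels of this family are uncertain. Dnah3, called lower at -1.33 ± 0.36 (SE, adjusted p = 0.0111), shares 10.5% of its exon bases with the antisense gene Lyrm1, and reads of such a pair cannot be told apart without strand.

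All 3 genes for arm assembly and spacing were called lower at day 14, and Zmynd10 and Ccdc39 also at day 21. Zmynd10, which helps to assemble dynein arms in the cytoplasm, was at 6.93, 9.98, 8.63 and 7.197 CPM at day 0, 7.31, 3.96, 4.78 and 8.56 CPM at day 7, 3.43, 2.55, 2.52 and 3.08 CPM at day 14 and 5.07, 3.36 and 2.29 CPM at day 21. It was below day 0 in every library of days 14 and 21, at -1.50 ± 0.28 (SE, adjusted p = 0.000854) and -1.20 ± 0.30 (SE, adjusted p = 0.00768), and shares 10.1% of its exon bases with an antisense gene. Ccdc40, which with Ccdc39 forms the ruler that sets the spacing of arms and spokes, was at 38.7, 49.9, 21.5 and 31.97 CPM at day 0, 37.04, 34.3, 33.7 and 54.4 CPM at day 7, 22.6, 7.14, 8.35 and 14.7 CPM at day 14 and 32.7, 15.3 and 16.5 CPM at day 21. At day 14 its replicate 1 overlapped day 0 and the log2 fold change was -1.43 ± 0.35 (SE, adjusted p = 0.00617). Ccdc39 gave -0.99 ± 0.23 (SE, adjusted p = 0.00357) at day 14, and 16.9% of its exon bases are shared with the antisense gene Ttc14. Its day 21 call was lost without any of 4 libraries (day 0 replicates 2 and 4, day 21 replicates 2 and 3) and with total count scaling.

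Of the 4 spoke genes, 3 were called lower at day 14. Rsph1, a protein of the spoke head, was at 30.6, 43.9, 24.8 and 30.5 CPM at day 0, 36.8, 27.9, 34.2 and 47.98 CPM at day 7, 20.03, 9.31, 7.84 and 14.7 CPM at day 14 and 20.3, 7.01 and 12.1 CPM at day 21, with all later libraries from day 14 on below day 0. Its log2 fold change was -1.32 ± 0.32 (SE, adjusted p = 0.00522) at day 14 and -1.31 ± 0.35 (SE, adjusted p = 0.0112) at day 21, where it was the only spoke gene called. Rsph4a, another head protein, was at 29.2, 47.2, 14.6 and 20.9 CPM at day 0, 27.9, 25.6, 25.5 and 44.3 CPM at day 7, 15.8, 4.98, 5.61 and 12.2 CPM at day 14 and 20.3, 8.66 and 13.5 CPM at day 21. Its day 0 libraries were spread widely and day 14 replicate 1 lay inside their range, and the log2 fold change was -1.54 ± 0.40 (SE, adjusted p = 0.00894). The call was lost within 1 range of mitochondrial share. Rsph9, also of the head, was not called at day 14, at -0.59 ± 0.29 (SE, adjusted p = 0.139), nor at day 21, and was called at day 14 without day 14 replicate 1 and within 1 range of mitochondrial share. Both settings leave out day 14 replicate 1, the library of that day with the highest member score.

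Of the 4 central pair genes, Spag16 and Hydin were called lower at day 14 and Spag17 and Cfap54 were not. Spag17 was called lower in 7 of 20 alternatives, among them DESeq2, limma voom and the mitochondrial covariate. Without day 14 replicate 1 all 4 were called, Spag17 at -1.86 (adjusted p = 0.0129) and Cfap54 at -1.23 (adjusted p = 0.0177). That library had the highest member score of its day, and leaving out any other day 14 library gave a call for neither gene. Hydin, a very large protein of a central pair projection, was at 23.8, 36.95, 16.3 and 27.6 CPM at day 0, 12.6, 16.7, 18.8 and 32.6 CPM at day 7, 11.3, 4.34, 3.95 and 8.39 CPM at day 14 and 12.8, 8.38 and 5.53 CPM at day 21. It was below day 0 in every library of days 14 and 21, at -1.90 ± 0.38 (SE, adjusted p = 0.00152) and -1.56 ± 0.42 (SE, adjusted p = 0.0106). Spag16 was at 20.1, 29.8, 15.7 and 17.4 CPM at day 0, 22.5, 19.8, 16.9 and 29.1 CPM at day 7, 14.4, 4.08, 5.21 and 9.24 CPM at day 14 and 17.3, 7.52 and 7.59 CPM at day 21. Its call at day 14, -1.33 ± 0.37 (SE, adjusted p = 0.0112), was not made at day 21, where replicate 1 lay inside the day 0 range. Spag17 had -1.28 ± 0.50 (SE, adjusted p = 0.0603) at day 14, and 15.7% of its exon bases are shared with antisense genes.

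Cfap54 was the one member with a positive log2 fold change at day 21, 0.32 ± 0.43 (SE, adjusted p = 0.622). It was at 14.9, 18.9, 9.78 and 18.5 CPM at day 0, 20.9, 5.29, 4.58 and 10.3 CPM at day 14 and 31.5, 15.04 and 11.5 CPM at day 21. The first replicate of both days exceeded every day 0 library. Without day 21 replicate 1 the day 21 value was -0.26 (adjusted p = 0.726), so its sign rests on that library.

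All 3 genes of the nexin-dynein regulatory complex, the link between neighbouring doublets, were called lower at day 14. Drc1 was at 26.02, 34.5, 18.6 and 22.4 CPM at day 0, 21.6, 18.3, 20.6 and 35.8 CPM at day 7, 10.8, 4.66, 5.15 and 10.9 CPM at day 14 and 12.3, 6.27 and 9.12 CPM at day 21. All libraries of days 14 and 21 lay below day 0, at -1.69 ± 0.32 (SE, adjusted p = 0.000893) and -1.46 ± 0.34 (SE, adjusted p = 0.00506), and Drc1 was the only gene of the complex called at day 21. Drc3 gave -1.17 ± 0.30 (SE, adjusted p = 0.00812) and Drc7 -0.87 ± 0.32 (SE, adjusted p = 0.0452) at day 14, and the Drc7 call was lost when any of 6 single libraries was left out.

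The tektins and the proteins inside or on the doublet had the smallest share of calls at day 14, 2 of 6 (Tekt1 and Tekt4), with a median of -0.66. Tekt1 and Tekt4, filament proteins that run along the doublet, gave -1.17 ± 0.32 (SE, adjusted p = 0.0117) and -1.15 ± 0.36 (SE, adjusted p = 0.0228). The Tekt4 call was lost without day 0 replicate 2 or any of day 14 replicates 2, 3 and 4. Cfap126 was at 18.5, 23.04, 19.4 and 19.4 CPM at day 0, 25.1, 23.1, 21.5 and 27.5 CPM at day 7, 21.3, 11.4, 7.72 and 12.9 CPM at day 14 and 27.3, 10.03 and 11.1 CPM at day 21. It was not called at day 14, -0.59 ± 0.30 (SE, adjusted p = 0.145), and neither were Cfap52 and Cfap53, at -0.54 ± 0.34 (SE, adjusted p = 0.238) and -0.39 ± 0.34 (SE, adjusted p = 0.406). Without day 14 replicate 1, the library of that day with the highest member score, Cfap126 and Cfap52 were called lower. Cfap53 and Cfap52 had the highest day 7 values of all members, 0.72 ± 0.34 (SE, adjusted p = 0.131) and 0.60 ± 0.33 (SE, adjusted p = 0.197), which did not pass the test.

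Tekt2 had its lowest mean at day 21. It was at 3.43, 5.14, 4.57 and 5.47 CPM at day 0, 3.97, 1.67, 3.19 and 2.74 CPM at day 7, 2.78, 2.296, 2.92 and 3.32 CPM at day 14 and 1.98, 1.77 and 0.765 CPM at day 21. Every library of days 14 and 21 lay below day 0, and it passed the test at day 21, -1.63 ± 0.34 (SE, adjusted p = 0.00246), but not at day 14 by edgeR, -0.72 ± 0.30 (SE, adjusted p = 0.0774), where DESeq2 called it lower. The difference between days 21 and 14 did not pass the test (log2 fold change -0.91 ± 0.34 SE, adjusted p = 0.408). Tekt2 shares 20.8% of its exon bases with an antisense transcript.

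Of the remaining 11 members, 10 were called lower at day 14, and 6 at day 21. The exception at day 14 was Tmem212, at -0.74 ± 0.38 (SE, adjusted p = 0.148), which was called lower without day 14 replicate 1 and within 1 range of mitochondrial share. Both settings leave out that library, which had the highest member score of its day. Tppp3 (chr8:105467493-105471526), a tubulin-binding protein abundant in multiciliated cells, was at 385, 386, 312 and 258 CPM at day 0, 187, 140.3, 209.5 and 231 CPM at day 7, 88.6, 70.2, 59.8 and 100.3 CPM at day 14 and 152, 60 and 63.1 CPM at day 21. Every library of each later day lay below every day 0 library. Its log2 fold changes were -0.80 ± 0.27 (SE, adjusted p = 0.0383), -2.07 ± 0.28 (SE, adjusted p = 5.87e-05) and -1.87 ± 0.30 (SE, adjusted p = 0.000365) at days 7, 14 and 21. The day 7 call was lost when any of 6 single libraries was left out, and also once the mitochondrial share was a term of the fit. The log2 fold change stayed between -1.02 and -0.68 in all alternatives.

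By edgeR Tppp3 was alone in its day 7 call. Cfap65 had the lowest day 7 value, -0.90 ± 0.35 (SE, adjusted p = 0.0674), and was at 33.6, 59.8, 59.7 and 86.8 CPM at day 0 and 25.4, 26.7, 26.1 and 50.2 CPM at day 7, where 3 of the 4 libraries lay below day 0 and replicate 4 did not. It was called lower at day 7 in 7 of 21 alternatives, among them DESeq2, no filter on low counts, and the fit without day 7 replicate 4. Cfap43 was at 88.9, 93.9, 99.9 and 105 CPM at day 0 and 76.8, 68.7, 77 and 84.4 CPM at day 7. Its day 7 libraries all lay below day 0, but its fold change was under 1.5, at -0.34 ± 0.12 (SE, adjusted p = 0.0449). The adenylate kinases Ak7 and Ak9 fell at days 14 and 21, Ak7 at -1.45 ± 0.28 (SE, adjusted p = 0.00104) and -1.37 ± 0.30 (SE, adjusted p = 0.00336). Armc3 fell too, at -1.64 ± 0.30 (SE, adjusted p = 0.000757) at day 14. Among the other members of this group, the day 14 call of Sntn was lost without day 0 replicate 2 or day 14 replicate 2 or 3. At day 21 the call of Ak9 was lost without day 0 replicate 2 or 4 or day 21 replicate 2 or 3, that of Cfap65 without day 0 replicate 4 or day 21 replicate 2 or 3 and with both days fitted alone, and that of Cfap43 without day 21 replicate 3.

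**Figure D4:**
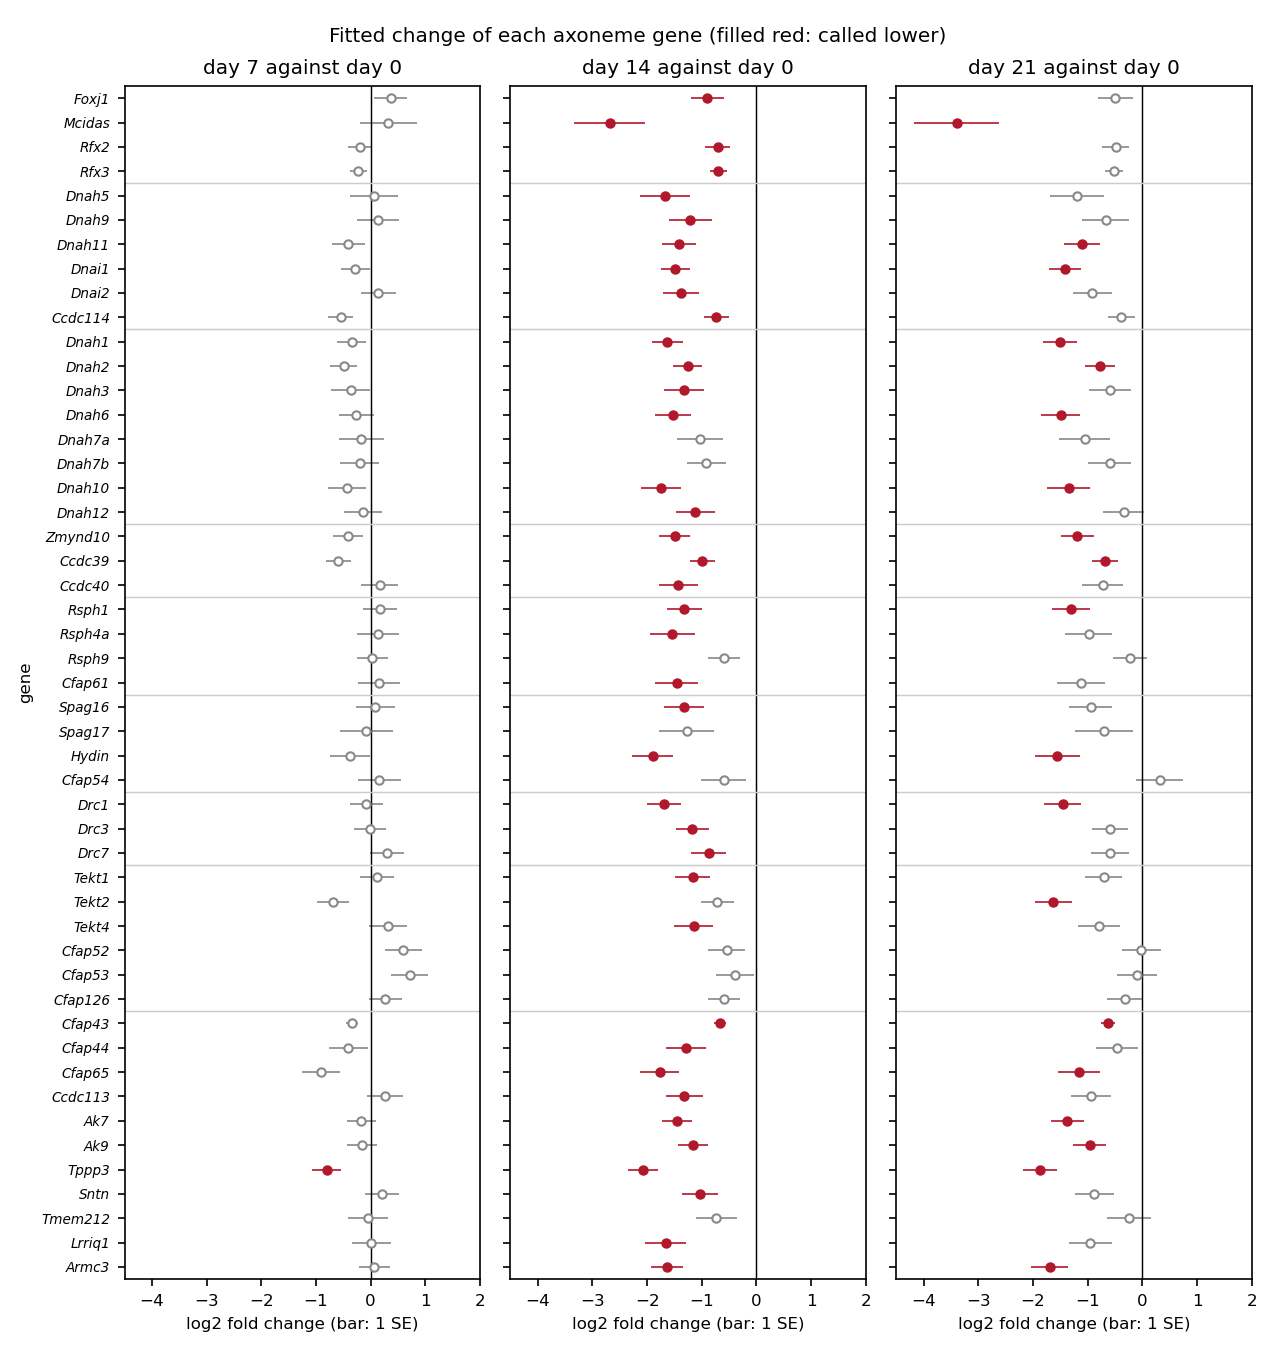
Log2 fold change against day 0 (points, with 1 SE) of each of the 49 genes, in the order of the roles above, for days 7, 14 and 21; filled red points passed the rule for a call. At day 7 only Tppp3 is filled, at day 14 39 points are filled and all lie left of 0, and at day 21 19 are filled.

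Compared with day 7 directly, 28 of 49 members were lower at day 14, where 3.23% of all genes tested were called lower, and 10 of 49 at day 21, where 4.34% were. The median log2 fold changes were -1.20 and -0.86. These comparisons depended on single libraries. The day 14 count ranged from 4, without day 7 replicate 4 or without day 14 replicate 2, to 37, without day 14 replicate 1. The mitochondrial share differed between these days, at most 2.15% in every day 7 library and at least 3.74% in 3 of the 4 day 14 libraries, and with it as a covariate 0 members were called, while the share of all genes tested called lower went from 3.23 to 0.607% (edgeR, for the members 32 at an unadjusted p under 0.05). Only 1 day 14 library, replicate 1 (2.102%), lay in the day 7 range, too few for a comparison within it, so the part of the mitochondrial share in these calls cannot be told apart from that of the day.

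For day 14 against day 0 the mitochondrial share could be held within 1 range. Among libraries over 3.5%, day 0 replicates 3 and 4 against day 14 replicates 2 to 4, 39 of 48 tested members were called lower, 35 of them among the 39 above, with a median of -1.40 (8.87% of all genes tested). This range also left out day 14 replicate 1, the library of that day with the highest member score. Without that library alone the median over the members was -1.63. Between days 14 and 21, 0 of 49 members were called by edgeR, 0 by DESeq2 and 0 by limma voom (2 at an unadjusted p under 0.05 by edgeR), and of all genes tested edgeR called 0% lower and 0% higher (DESeq2 called 0.149% lower). The median log2 fold change from day 14 to day 21 was 0.34, and 45 of 49 were positive, and no single gene passed the test. The member scores of day 21 replicates 2 and 3 (-1.24 and -1.34) lay inside the day 14 range (-1.75 to -0.66). Only that of day 21 replicate 1 (-0.26) lay above it, and the part of this library in the median was not tested.

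Libraries that did not overlap gave a second view of the same values. At day 14, 31 of 49 members had all 4 libraries below all 4 day 0 libraries, against 14.4% of all genes tested. At day 21 it was 17 of 49, against 16% of all genes tested. By length, at day 14 against day 0 the 15 members with over 10 kb of exon had a median of -1.33 (12 called) and the other 34 had -1.22 (27 called), whereas all genes in those length classes had medians of -0.08 and 0.03.

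On the scale of CPM per kilobase of exon, averaged over the 15 libraries, Tppp3 had the highest level of the members at 97.5, followed by Foxj1 at 32.01, Tmem212 at 30.3 and Rsph1 at 17.9. The lowest were Mcidas at 0.251, Dnah7b at 0.325 and Dnah7a at 0.364. At day 0 Tppp3 stood at 181 CPM per kilobase and Foxj1 at 35.7, and at day 14 they stood at 43.2 and 19.1. Read counts were sufficient for all members but Mcidas, since the other 48 had at least 10 counts in every library.

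Members moved together from library to library, which is a description of 15 libraries that share the day effect. Within days, the correlation of a gene with the mean of the other members was highest for Ak7 (Pearson r = 0.98) and Dnah5 (0.97), and lowest for Tekt2 (0.43), Cfap43 (0.50) and Rfx3 (0.59). Outside the list, the 10 genes whose level over the 15 libraries was most like the member score were Adgb, Eno4, Cfap70, Dusp18, Rp1, Cyp2s1, Cfap206, Stmnd1, Vwa3b and Traf3ip1 (Pearson r from 0.97 to 0.99). Of these, Cfap70, Cfap206 and Traf3ip1 were already in the cilium lists described next. Adgb went from 18.03 CPM at day 0 to 7.30 CPM at day 14, and Cyp2s1 from 173 to 79.6 CPM.

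Other cilium genes were examined by list. Of 42 further axoneme and dynein arm genes, 31 were called lower at day 14 (median -1.14) and 20 at day 21 (median -0.97), and none was called higher. Iqca and Cfap57 were the lowest at day 14, at -2.14 ± 0.33 (SE, adjusted p = 0.00018) and -2.11 ± 0.35 (SE, adjusted p = 0.000347). The highest were Dnah17 and Ropn1l, at 0.22 ± 0.38 (SE, adjusted p = 0.683) and 0.27 ± 0.27 (SE, adjusted p = 0.475). Of 13 tested cytoplasmic factors that assemble dynein arms, 3 were called lower at day 14 (median -0.47), with Dnaaf1 lowest at -1.88 ± 0.39 (SE, adjusted p = 0.00193) and Lrrc6 next at -1.08 ± 0.37 (SE, adjusted p = 0.0359). The Lrrc6 call was lost without any of 5 libraries (day 0 replicates 1 and 2, day 14 replicates 2, 3 and 4) and within 1 range of mitochondrial share. The chaperone partners Wdr92 and Ruvbl1 were highest, at -0.05 ± 0.12 (SE, adjusted p = 0.758) and 0.12 ± 0.14 (SE, adjusted p = 0.552).

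Of 28 genes of intraflagellar transport, the machinery that builds cilia of every kind, 7 were called lower at day 14 (median -0.26) and 3 at day 21, or 10.7%, a share close to the 10.1% of all genes tested. Wdr19 and Ttc30b were the lowest, at -0.83 ± 0.15 (SE, adjusted p = 0.000687) and -0.75 ± 0.26 (SE, adjusted p = 0.0391). The Ttc30b call was lost without any of the same 5 libraries as for Lrrc6, with both days fitted alone and within 1 range of mitochondrial share. Kif17 and the motor subunit Kif3b were the highest, at 0.30 ± 0.35 (SE, adjusted p = 0.54) and 0.38 ± 0.13 (SE, adjusted p = 0.0312), and Kif3b was called higher at day 21, 0.63 ± 0.14 (SE, adjusted p = 0.0027), where 12.4% of all genes tested were called higher.

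Of the 15 genes of multiciliation and centriole amplification, 7 were called lower (Gmnc, Foxn4, Cdc20b, Trp73, Myb, Ccno and Deup1) and 2 higher at day 14, where 12% of all genes tested were called higher. Gmnc, which acts before Mcidas in the program, was at 4.53, 6.05, 1.71 and 1.79 CPM at day 0, 1.25, 1.01, 1.87 and 1.49 CPM at day 7, 0.0591, 0, 0.172 and 0.483 CPM at day 14 and 0.309, 0.114 and 0.235 CPM at day 21. Its day 14 and day 21 libraries all lay far below day 0, at -4.24 ± 0.66 (SE, adjusted p = 0.000205) and -3.97 ± 0.72 (SE, adjusted p = 0.00081). Foxn4 was next and had 12, 10, 16 and 5 counts at day 0 and 2, 1, 1 and 0 counts at day 14. Its summed counts at day 14, scaled to library size, were 9.16% of day 0 (95% exact interval for counting error only from 2.39 to 25.2%, adjusted p = 0.00117). Stil and Plk4, which every dividing cell uses to copy its centrioles, were the 2 called higher, at 2.37 ± 0.24 (SE, adjusted p = 6.32e-06) and 1.20 ± 0.18 (SE, adjusted p = 0.000198), and both were also higher at day 7, where 8.78% of all genes tested were called higher.

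**Figure D5:**
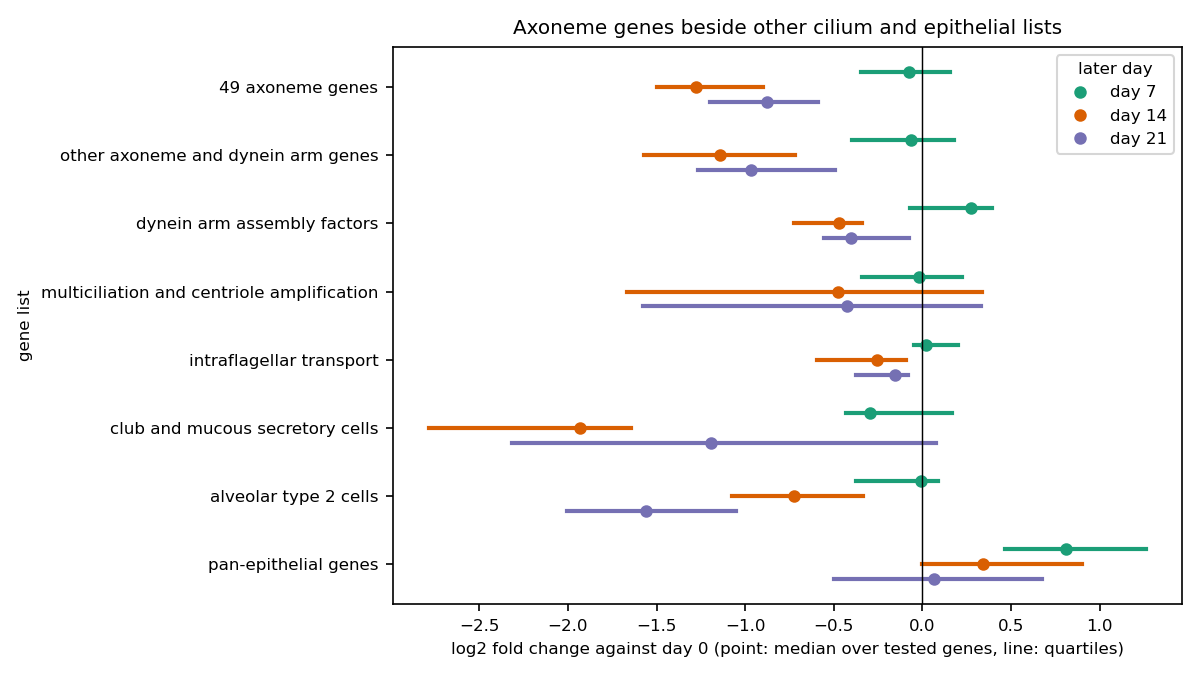
Median (point) and quartiles (line) of the log2 fold change against day 0 over the tested genes of 8 lists, for days 7, 14 and 21. The 49 axoneme genes and the 42 further axoneme genes have medians of -1.28 and -1.14 at day 14, while intraflagellar transport is at -0.26 and the pan-epithelial list at 0.34.

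Markers of the other airway and lung epithelial cells were read beside the members. Of 10 club and mucous secretory genes, 2 were called lower at day 7, 7 at day 14 (median -1.93) and 4 at day 21. The lowest at day 14 were Muc5b and Cyp2f2, a club cell cytochrome P450, at -3.39 ± 1.18 (SE, adjusted p = 0.0375) and -3.05 ± 0.32 (SE, adjusted p = 6.89e-06), and the highest were Muc5ac and Bpifa1, at -1.54 ± 1.03 (SE, adjusted p = 0.272) and -0.47 ± 1.51 (SE, adjusted p = 0.842). Scgb1a1, the club cell secretoglobin, was at 24630 to 31290 CPM at day 0, 8066 to 10300 CPM at day 7, 2686 to 6800 CPM at day 14 and 1308 to 4811 CPM at day 21. It was thus below day 0 in every library already at day 7, when Foxj1 was not. The log2 ratio of Foxj1 to Scgb1a1 CPM within a library was -8.23 ± 0.34 (SD, n = 4) at day 0 and -6.28 ± 0.26 (SD, n = 4) at day 7. It was -6.68 ± 0.67 (SD, n = 4) at day 14 and -5.45 ± 0.77 (SD, n = 3) at day 21. The ratio was formed after the levels of both genes were seen, so it is a description and carries no test.

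Of 10 alveolar type 2 genes, 5 were called lower at day 14 (median -0.73) and all 10 at day 21 (median -1.56). Sftpc, the surfactant protein that marks these cells, was at 15730 to 25100 CPM at day 0, 3742 to 13030 CPM at day 14 and 2213 to 4906 CPM at day 21. The lowest of the list at day 14 were Sftpa1 and Etv5, at -1.56 ± 0.28 (SE, adjusted p = 0.000757) and -1.29 ± 0.26 (SE, adjusted p = 0.00144), and the highest were Sftpd and Napsa, at -0.17 ± 0.20 (SE, adjusted p = 0.542) and 0.02 ± 0.25 (SE, adjusted p = 0.956). The pan-epithelial list had 6 of 10 genes called higher at day 7, 4 higher and 1 lower at day 14 and 3 higher and 2 lower at day 21, and Epcam, a surface protein of epithelial cells, was at 56.0 to 80.8 CPM at day 0 and 61.9 to 108 CPM at day 14. Of 8 alveolar type 1 genes, Pdpn was called higher on each later day, and Hopx at day 7 and Hopx and Rtkn2 at day 21 were called lower. At day 14 Rtkn2 and Hopx were lowest, at -0.87 ± 0.43 (SE, adjusted p = 0.136) and -0.42 ± 0.24 (SE, adjusted p = 0.194), and Aqp5 and Pdpn highest, at 0.37 ± 0.16 (SE, adjusted p = 0.0974) and 1.16 ± 0.18 (SE, adjusted p = 0.000183). The highest of the pan-epithelial list at day 14 were Cldn4 and Krt7, at 4.11 and 1.08, and Grhl2, an epithelial transcription factor, was the one called lower, at -0.88 ± 0.15 (SE, adjusted p = 0.000403), with Nkx2-1 next at -0.47 ± 0.22 (SE, adjusted p = 0.119).

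Markers of the large airways, the part of the tract richest in multiciliated cells, varied with the libraries. Bpifa1 was at 10.9, 25.5, 10.1 and 43.2 CPM at day 0, 25.2, 24.4, 42.95 and 330.3 CPM at day 7, 59.6, 2.23, 0.915 and 2.17 CPM at day 14 and 1045, 2.79 and 3.82 CPM at day 21. Within days 7, 14 and 21, the library highest in Bpifa1 was also the one with the highest member score. At day 0 this did not hold, since replicate 4 was highest in Bpifa1 and Bpifb1 and replicate 2 had the highest score. The library highest in Muc5b, the mucin of airway glands and club cells, had the highest score on each of the 4 days. Bpifb1, a relative of Bpifa1, was at 2.14, 12.4, 20.4 and 23.3 CPM at day 0, 24.5, 6.81, 30.3 and 189.5 CPM at day 7, 8.45, 0.255, 0.286 and 0.724 CPM at day 14 and 60.97, 0.114 and 0.177 CPM at day 21. The 5 libraries at or below 0.724 CPM, day 14 replicates 2 to 4 and day 21 replicates 2 and 3, are the 5 with the lowest member scores. Ltf, a gland marker, was highest in the library with the highest score at days 7 and 21 but not at days 0 and 14. At day 14 it was at 70.6, 35.7, 92.9 and 16.4 CPM, highest in replicate 3, which had the lowest score. Values of Bpifa1, Bpifb1 and Ltf by library were chosen after they were seen. How much large airway each lung sample held is not given in the labels, and its part in the fall of the axoneme genes was not tested.

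Other tissues of the airway wall and its surroundings were read by their markers. Of 12 cartilage genes only 4 were tested, with 2 called higher (Hapln1 and Comp, at 3.07 and 2.08) and 1 lower (Chad) at day 14, and Col9a3 at -0.05 ± 0.32 (SE, adjusted p = 0.923). Chad, a matrix protein of cartilage, was at -3.56 ± 0.56 (SE, adjusted p = 0.000235), and the defining cartilage collagen Col2a1 was at most 0.557 CPM in any library. Of 5 tested basal cell genes, 3 were called higher at day 7 (Trp63, Ngfr and Icam1), 1 at day 14 (Icam1, which many cell types also express) and 2 at day 21 (Trp63 and Icam1), and Krt5 was at 0 in all day 0 libraries. At day 14 Krt15 and Trp63 were lowest, at -0.68 and 0.30, and Icam1 and Krt14 highest, at 0.97 and 1.81. Of 3 tested gland genes, 1, Ltf, was called higher at day 21, where it was at 718, 10.2 and 12.8 CPM, with replicate 1 far above the others. At day 14 the 3 gave -2.58 (Bpifb1), -0.69 (Azgp1) and 1.27 (Ltf). Of 3 tested squamous genes, 1 (Sprr1a, 3.85 ± 0.37 (SE, adjusted p = 4.05e-06)) was called higher at day 14, when Lor was at -0.82 and Krt4 at 0.64. Of 6 tested heart muscle genes, 2 were called lower at day 14, when Myh6 was at most 0.114 CPM and Ryr2 gave -2.31 ± 0.79 (SE, adjusted p = 0.0343). The highest were Tnni3 and Tnnt2, at -1.79 and -0.96.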

How the data were processed

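Whole lung poly(A) RNA was measured in 15 libraries. The authors aligned reads to mm10 (GRCm38) with HISAT2 2.1.0, discarded multimapped reads, and deposited the raw HTSeq 0.6.0 counts of each Ensembl gene, with no normalization. The authors' own tests (DESeq2 1.40.2) were not used. Strand setting and annotation release are not given in the sources used here, and the library kit does not mark strand. Groups came from the sample titles. The study calls its replicates biological, and the labels do not tie a library to an animal, so p-values measure the spread between these samples.

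Counts were tested in R 4.3.3 with edgeR 4.0.16 (filterByExpr, TMM, glmQLFit, glmQLFTest, day as the only term, 15 libraries in 1 fit), with Benjamini-Hochberg adjustment over 17457 genes. Genes were called where the adjusted p was below 0.05 and the fold change exceeded 1.5. CPM used TMM-adjusted library sizes, and scores used log2 CPM with a prior count of 2. The standard error is the log2 fold change divided by the root of F. The script was tested on simulated data. DESeq2 1.42.0, limma 3.58.1 and other settings were alternatives. Intervals cover counting error only. No 2 libraries were alike within sampling noise (lowest chi-square per degree of freedom within a day 10.4).

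The members and lists were chosen with earlier results of these data known. All values per library are given for Foxj1, Mcidas and, in each role, the member with the highest mean CPM per kilobase and the one with the largest log2 fold change against day 0. Members whose call differed from the rest of their role were named too. From other lists the 2 lowest and 2 highest at day 14 were named, with Scgb1a1, Sftpc, Krt5, Col2a1, Epcam and Myh6 as defining markers. Cfap54, Cfap65, Cfap43, Bpifa1, Bpifb1, Ltf and Gmnc values by library were chosen after they were seen. Same-numbered replicates did not deviate together.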

Additional observations from a re-analysis of the deposited data

Results flagged for a closer look

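Within each day of 4 libraries, the highest and lowest value of every member and of the score were compared with the other 3 by Dixon's criterion, in 150 groups, of which chance flags about 1 in 20. It marked 6 gene values, all at day 7 and in 2 libraries. Day 7 replicate 4 stood above the other 3 in 5 genes. There Ccdc39 was at 26.6 CPM against 15.2 to 15.9 CPM, and Ccdc40 at 54.4 CPM against 33.7 to 37.0 CPM. Cfap65 was at 50.2 CPM against 25.4 to 26.7 CPM, Dnah11 at 21.9 CPM against 13.1 to 14.1 CPM, and Rsph4a at 44.3 CPM against 25.5 to 27.9 CPM. This is the day 7 library with the most Myh6 and Bpifa1 RNA, and the part of that RNA in these values was not tested. Day 7 replicate 2 stood below the other 3 in Rsph9, at 11.1 CPM against 14.3 to 14.8 CPM.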

How the results depend on the processing

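At day 14 against day 0 the member count was within 1.5 times of 39 in all alternatives but a test against a fold change of 1.5 (glmTreat), which gave 18. Of the 39 calls, 18 were kept in all alternatives that tested the gene, and of the 19 at day 21, 9 were. Both counts include Mcidas, which was too scarce to be tested in 3 of the alternatives at day 14 and 1 at day 21. Leaving out 1 library gave 31 to 46 calls at day 14 (medians -1.63 to -1.09), 12 to 37 at day 21 (medians -1.36 to -0.70) and 0 to 3 at day 7 (medians -0.23 to 0.04). Without day 0 replicate 2 the day 7 median was positive and the 1 member called was higher, not lower. For day 14 against day 7 it gave 4 to 37, for day 21 against day 7 2 to 22, and for day 21 against day 14 0. glmTreat gave 9 at day 21, 0 at day 7, 0 for day 14 against day 7 and 2 for day 21 against day 7. The mitochondrial share as a covariate gave 0 at day 7, 0 for day 14 against day 7 and 2 for day 21 against day 7. At day 7, 3 members were called with no filter, with each pair of groups fitted alone and by DESeq2, and 2 by limma voom and with no fold change limit. For day 21 against day 7, no filter gave 20, limma voom 16 and DESeq2 19. Without day 7 replicate 4 and day 21 replicate 1, the 2 libraries with the most heart and airway RNA, 4 were called at day 7, 36 at day 21 (median -1.33) and 18 for day 14 against day 7. These 2 were chosen after the data were seen, and day 0 replicates 3 and 4, with Myh6 at 82.3 and 73.4 CPM, stayed in. Same-numbered replicates did not deviate together (correlations from -0.244 to 0.221), and a replicate block gave 3, 44 and 23 calls at days 7, 14 and 21, and 32, 14 and 0 between later days, without the day 21 calls of Dnah2, Ccdc39 and Cfap43.

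At days 14 and 21 the named genes whose sign turned were not called. At day 21, leaving out 1 library gave ranges of -0.26 (without day 21 replicate 1) to 0.54 for Cfap54, -0.29 to 0.22 for Cfap52, -0.43 to 0.17 for Cfap53, -0.73 to 0.022 for Rsph9 and -1.14 to 0.030 for Tmem212. Cfap54 was -0.23 without both libraries named above. With the mitochondrial covariate Cfap52 was 0.11 and Cfap53 0.058. The highest values came without day 21 replicate 2 for Cfap52 and Rsph9, day 0 replicate 2 for Cfap53 and day 21 replicate 3 for Tmem212. At day 14 the ranges were -0.062 to 0.21 for Ruvbl1, -0.016 to 0.42 for Kif17 and -0.058 to 0.51 for Dnah17, and within 1 mitochondrial range Ruvbl1 was -0.003011 and Dnah17 -0.27. The causes were not tested. A single mitochondrial range was not possible for day 21 or between later days. Depth limited Mcidas alone among the members, with 0 counts in 2 libraries.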
